A study of Mus musculus with 12 samples.

Results

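Pericytes and vascular smooth muscle cells, together called mural cells, wrap the endothelium of small and large vessels. The 8 genes Rgs5, Steap4, Cspg4, Mcam, Abcc9, Vtn, Higd1b and Ndufa4l2 are used as mural markers, and they were picked by symbol from the 31099 genes of the count table. All 8 passed the filter on low counts, which left 18855 genes for testing. Their RNA was measured in cells sorted from CD-1 mouse pups aged 3 days, with males and females mixed. PVAT preadipocytes and PVAT progenitors came from the perivascular fat of the thoracic aorta, and ICAM1+ preadipocytes and DPP4+ progenitors from inguinal white fat (IWAT). Each group had 3 libraries. No genotype or treatment separated the groups. Library 1, 2 or 3 of every group was made from the same pool of mice, so each replicate stands for a pool. No source used here names the sort markers of the PVAT cells, so a difference between the depots and a difference between the sort gates cannot be told apart. The protocol names smooth muscle cells as a separate sorted population, which was not analysed here.

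Pericytes are recruited to new vessels by PDGF-B from the endothelium, which acts on PDGFRB at their surface, and Notch3 signalling through the factor RBPJ keeps mural identity. Their tone is set by G protein signalling, by nitric oxide acting on guanylate cyclase and by ATP-sensitive potassium channels. In fat, cells along vessel walls have been studied as a source of new adipocytes, and several mural genes are also read in adipose progenitors and preadipocytes. None of the 8 genes is restricted to mural cells in every tissue, so a level in a sorted fat fraction is a measurement of that RNA and not a count of pericytes.

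The letters upstream of 3 of the genes are shown. These 3 had the largest changes between preadipocytes and progenitors of the members with a promoter in the RefSeq table (GRCm38.p6). Each gene was ranked by the depot with its larger change. In inguinal fat alone, Rgs5 (1.63) and Mcam (1.47) changed more than Abcc9 (-1.28), and in PVAT alone Mcam (1.08) changed more than Steap4 (-0.47). The 3 were also chosen because each holds a TGGGAA, the core that RBPJ binds, so they cannot show a link between motif and change. The table matched 6 of the 8 genes and held none for Higd1b and Ndufa4l2. Each line gives the 250 bases before the annotated start, 5′ to 3′ on the gene's own strand. Capitals mark TGGGAA or its reverse complement and, in Vtn, the E-box CACCTG.
Steap4 (chr5:7960222-7960471, plus strand): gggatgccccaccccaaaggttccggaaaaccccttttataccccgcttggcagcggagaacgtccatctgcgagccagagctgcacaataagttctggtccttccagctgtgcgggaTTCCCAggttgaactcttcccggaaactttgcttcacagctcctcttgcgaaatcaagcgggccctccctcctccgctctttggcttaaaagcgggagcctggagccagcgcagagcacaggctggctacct
Abcc9 (chr6:142702275-142702524, minus strand): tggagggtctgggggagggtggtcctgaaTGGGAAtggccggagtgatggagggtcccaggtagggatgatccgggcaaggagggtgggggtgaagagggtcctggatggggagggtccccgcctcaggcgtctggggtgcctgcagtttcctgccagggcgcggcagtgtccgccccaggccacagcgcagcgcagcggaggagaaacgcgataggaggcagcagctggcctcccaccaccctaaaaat
Vtn (chr11:78498870-78499119, plus strand): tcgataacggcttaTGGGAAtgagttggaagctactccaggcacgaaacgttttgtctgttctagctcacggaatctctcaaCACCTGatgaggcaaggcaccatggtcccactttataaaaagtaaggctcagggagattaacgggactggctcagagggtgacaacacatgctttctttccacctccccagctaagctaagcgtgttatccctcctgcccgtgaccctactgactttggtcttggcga
The RBPJ core lies 132 bases before the start of Steap4, on the opposite strand, 221 bases before that of Abcc9 and 236 bases before that of Vtn. Vtn holds 3 copies in the window of 300 bases that reaches 50 bases past the start, and its E-box starts 168 bases before it. Over all 32851 promoter windows of this length and both strands, TGGGAA is present in 25.6% and CACCTG in 20.2%. Mcam holds 1 E-box and no RBPJ core, and Rgs5 and Cspg4 hold neither. The hypoxia response core ACGTG (19.6% of windows) and the CArG box of serum response factor (1.63%) were found in 0 of the 6. The motifs did not overlap, and a match of this kind describes the letters and is not evidence of binding.

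Total counts per library ran from 15614628 to 25674461. Levels are CPM (reads scaled to a common library size by TMM), in the order of libraries 1, 2 and 3. Dpp4 averaged 32 ± 4.41 CPM in ICAM1+ preadipocytes and 1510 ± 72.6 CPM in DPP4+ progenitors, and Icam1 averaged 496 ± 11.1 and 61.6 ± 15.8 CPM in the same order (SD, n = 3 each), which fits the inguinal sort labels. Pdgfra, the surface marker of adipose stromal cells, averaged 174 ± 61.1 CPM in PVAT preadipocytes, 588 ± 176 in PVAT progenitors, 622 ± 117 in ICAM1+ preadipocytes and 492 ± 47.4 in DPP4+ progenitors. PVAT preadipocyte library 1, PVAT progenitor library 1 and DPP4+ progenitor library 2 stood apart from the others of their groups, and calls of the 8 genes that were gained without these 3 outlying libraries are given beside the genes. They were set apart by their values in these same data, and each of their groups then holds 2 libraries. Leaving them out also narrows the spread, so the calls gained show how far a result depends on these libraries and are not added evidence.

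The 8 genes did not move as a set. Steap4 was highest in ICAM1+ preadipocytes and lowest in DPP4+ progenitors, and Vtn was high in ICAM1+ preadipocytes alone. Abcc9 was higher in progenitors of both depots. That ran against Vtn, and against Steap4 in inguinal fat but not in PVAT. Genes were called at an adjusted p under 0.05 in edgeR's quasi-likelihood test over all 18855 genes. ICAM1+ preadipocytes differed from DPP4+ progenitors in 5 of the 8, against 17.9% of all genes, with 4 higher (Rgs5, Steap4, Mcam, Vtn) and 1 lower (Abcc9). Among all genes 9.34% were higher and 8.61% lower. PVAT preadipocytes differed from PVAT progenitors in 3, against 32.9% of all genes, with Mcam and Vtn higher and Abcc9 lower, where 16.8% of all genes were higher and 16.1% lower. PVAT progenitors differed from DPP4+ progenitors in 4, against 24.9% of all genes, with Steap4, Cspg4 and Ndufa4l2 higher and Vtn lower, where 13% of all genes were higher and 11.8% lower. PVAT preadipocytes differed from ICAM1+ preadipocytes in 2, against 44.9% of all genes, with Steap4 and Vtn lower, where 23.5% of all genes were higher and 21.4% lower.

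The share of members called was above that of all genes between the inguinal groups and between the progenitors, near it between the PVAT groups and below it between the preadipocytes. The median log2 change of the 8 was 1.19 for ICAM1+ preadipocytes over DPP4+ progenitors and 0.28 for PVAT progenitors over DPP4+ progenitors. It was -0.65 for PVAT preadipocytes over ICAM1+ preadipocytes and 0.20 for PVAT preadipocytes over PVAT progenitors. The medians over all genes lay between -0.05 and 0.05. Scaling by library totals in place of TMM shifted these medians to between 0.12 and 0.48, and the values of the 8 genes are relative to the TMM scale. Without the 3 libraries that stood apart, 5 members were called between the preadipocytes and 6 between the PVAT groups, while the calls over all genes also rose, to 10925 and 9894, against 8467 and 6198 with all libraries. The comparisons share groups with each other, so their values are given side by side and not as independent evidence. In bulk libraries, a lower level can come from fewer cells that hold the RNA or from less RNA in each, and these cannot be told apart.

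**Figure D1:**
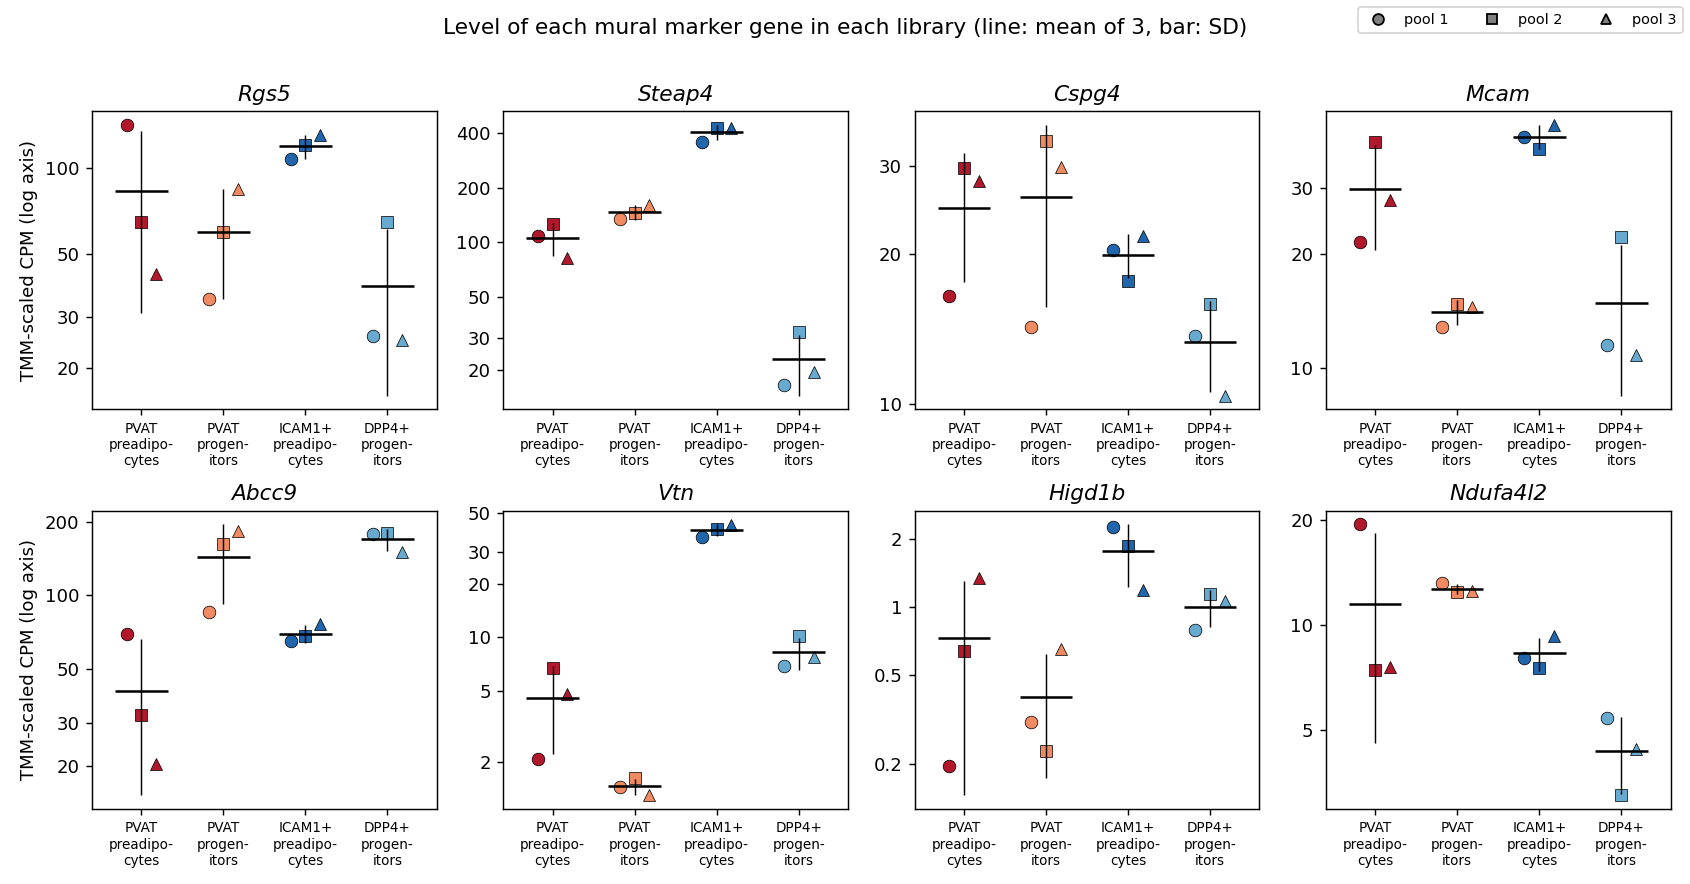
TMM-scaled CPM on log axes for the 8 genes in the 12 libraries, with circles, squares and triangles for pools 1, 2 and 3, a line at the mean of 3 libraries and a bar of 1 SD. Steap4 sits between 357 and 426 CPM in ICAM1+ preadipocytes and between 16.6 and 32.4 CPM in DPP4+ progenitors, while Abcc9 is higher in both progenitor groups than in the preadipocytes of the same depot.

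**Figure D2:**
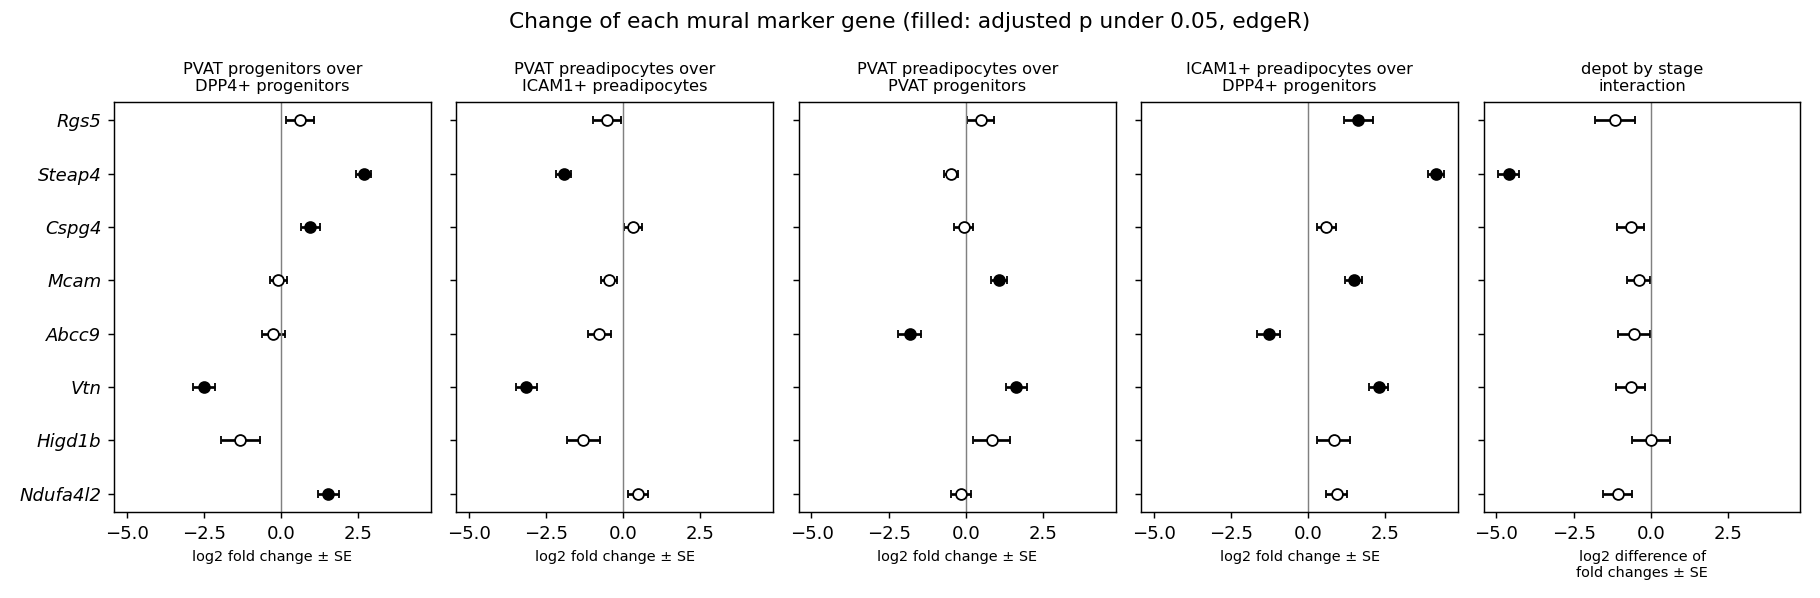
The log2 fold change (x axis, ± SE) of each gene in the 4 comparisons and the depot by stage interaction, with filled points for an adjusted p under 0.05 in edgeR. The changes of single genes point in different directions within every comparison, and the interaction is called for Steap4 alone.

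Rgs5 (chromosome 1, 169655501 to 169695813, mm10), a GTPase-activating protein that shortens G protein signals and is the most used pericyte marker, was at 141, 64.7 and 42.6 CPM in PVAT preadipocytes, against 34.8, 59.5 and 84.4 CPM in PVAT progenitors. It was at 107, 120 and 130 CPM in ICAM1+ preadipocytes, against 25.9, 64.5 and 25.1 CPM in DPP4+ progenitors. The PVAT groups overlapped, and the inguinal groups did not overlap. Rgs5 rose in ICAM1+ preadipocytes over DPP4+ progenitors by 1.63 ± 0.47 on the log2 scale (SE, adjusted p = 0.0286), and the direction held in 3 of 3 pools. That call was lost when any of 5 single inguinal libraries was left out, with adjusted p-values of 0.0559 to 0.114. PVAT preadipocytes over PVAT progenitors gave 0.48 ± 0.45 (adjusted p = 0.448), and pool by pool the difference was 2.02, 0.12 and -0.98. Without PVAT preadipocyte library 1 that value was -0.20, and without the 3 libraries that stood apart it was -0.49 (adjusted p = 0.0488), so the sign of the PVAT stage difference rested on that library. PVAT preadipocytes over ICAM1+ preadipocytes gave -0.52 ± 0.45 (adjusted p = 0.364) and -1.2 without the 3 libraries (adjusted p = 5.22e-05). PVAT progenitors over DPP4+ progenitors gave 0.63 ± 0.46 (adjusted p = 0.354) and became 1.49 without the 3 libraries (adjusted p = 4.88e-05). The interaction was -1.15 ± 0.64 (adjusted p = 0.24) and -2.69 without the 3 libraries (adjusted p = 3.36e-06). In the order of group means Rgs5 was highest in ICAM1+ preadipocytes, then PVAT preadipocytes, PVAT progenitors and DPP4+ progenitors, and each neighbour in that order overlapped the next.

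Steap4 (chromosome 5, 7960457 to 7982213), a metalloreductase that reduces iron and copper at the cell surface and in endosomes and is induced during adipocyte differentiation, was at 109, 126 and 82.5 CPM in PVAT preadipocytes, against 134, 145 and 161 CPM in PVAT progenitors. It was at 357, 422 and 426 CPM in ICAM1+ preadipocytes, against 16.6, 32.4 and 19.6 CPM in DPP4+ progenitors. No group overlapped another. Steap4 was 17.6-fold higher in ICAM1+ preadipocytes than in DPP4+ progenitors (log2 4.13 ± 0.26, adjusted p = 5.32e-07), the largest change of any of the 8 genes between groups. It was 6.39-fold higher in PVAT progenitors than in DPP4+ progenitors (log2 2.68 ± 0.25, adjusted p = 6.72e-06). It was 3.80-fold lower in PVAT preadipocytes than in ICAM1+ preadipocytes (log2 -1.93 ± 0.24, adjusted p = 6.46e-05). PVAT preadipocytes over PVAT progenitors gave -0.47 ± 0.23 (adjusted p = 0.134), lower in 3 of 3 pools, and -0.62 without those 3 outlying libraries (adjusted p = 0.00863). The stage difference itself differed between the depots, with an interaction of -4.60 ± 0.34 on the log2 scale (adjusted p = 7.96e-06). Steap4 was the 1 member called in the interaction, against 15.0% of all genes (6.37% above zero and 8.66% below), and without the 3 libraries 6 members were called there, while the calls over all genes rose to 7784, against 2834 with all libraries.

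Steap4 also decided how the members compare per length. Per kilobase of exon, it averaged 33.5 ± 6.95 CPM in PVAT preadipocytes, 46.4 ± 4.33 in PVAT progenitors, 127 ± 12.3 in ICAM1+ preadipocytes and 7.25 ± 2.67 in DPP4+ progenitors. It made up 42.1%, 48.9% and 62.0% of the summed level of the 8 genes per kilobase in the first 3 of these groups. In DPP4+ progenitors its share was 14%, and Abcc9 led with 40.7%. Rgs5 came second per kilobase in PVAT preadipocytes (18.2 ± 11.4 CPM) and ICAM1+ preadipocytes (26.2 ± 2.5 CPM). Cspg4 stood at 1.12 to 2.18 CPM per kilobase in the group means. Higd1b was the lowest of the 8 in both PVAT groups, at 0.854 ± 0.680 in PVAT preadipocytes and 0.467 ± 0.262 CPM per kilobase in PVAT progenitors.

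Steap4 belongs to a family of metalloreductases, and Steap3 shared its direction between the preadipocytes but not between the inguinal groups or between the progenitors. Steap3, the form that serves transferrin iron uptake in red cell precursors, was lower in PVAT progenitors than in DPP4+ progenitors (-0.93), lower in PVAT preadipocytes than in ICAM1+ preadipocytes (-1.91) and lower in preadipocytes than in progenitors of both depots (-1.87 in PVAT, -0.89 in IWAT). It averaged 37.2 ± 6.03 CPM in PVAT preadipocytes, 137 ± 18.8 in PVAT progenitors, 140 ± 11.9 in ICAM1+ preadipocytes and 261 ± 22.8 in DPP4+ progenitors. In the inguinal groups Steap4 and Steap3 therefore changed in opposite directions between the stages. Steap1 was called higher in PVAT preadipocytes against both of their comparison groups (2.41 over ICAM1+ preadipocytes, 2.17 over PVAT progenitors), at a mean of 3.94 ± 1.96 CPM. The list of relatives of the 8 genes also held Kcnj8, Kcnj11, Cox4i1 and Cox4i2, which are not relatives of any of them. It shared Rgs4, Kcnj8 and Cox4i2 with the list of other mural genes below. Of the 12 tested genes of this mixed list, 5 were called higher and 4 lower in PVAT preadipocytes over PVAT progenitors. In ICAM1+ preadipocytes over DPP4+ progenitors, 2 were higher and 3 lower. Between depots 4 were higher and 2 lower in PVAT preadipocytes over ICAM1+ preadipocytes, and 0 higher and 2 lower in PVAT progenitors over DPP4+ progenitors. In the order of these 4 comparisons, 32.9%, 17.9%, 44.9% and 24.9% of all genes were called.

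Cspg4 (chromosome 9, 56865033 to 56899870) encodes the proteoglycan NG2, a surface antigen of pericytes and of glial precursors. It was at 16.5, 29.8 and 28 CPM in PVAT preadipocytes, against 14.3, 33.8 and 29.9 CPM in PVAT progenitors. It was at 20.4, 17.7 and 21.7 CPM in ICAM1+ preadipocytes, against 13.7, 15.9 and 10.4 CPM in DPP4+ progenitors. Library 1 was the low library of both PVAT groups. Cspg4 rose in PVAT progenitors over DPP4+ progenitors by 0.96 ± 0.31 (adjusted p = 0.0383), but library 1 of the PVAT progenitors lay inside the DPP4+ range. The call was lost in 9 of the alternatives, among them a fit of the 2 groups alone (adjusted p = 0.0725). The other comparisons gave 0.58 for ICAM1+ preadipocytes over DPP4+ progenitors (adjusted p = 0.238), 0.31 for PVAT preadipocytes over ICAM1+ preadipocytes (adjusted p = 0.416) and -0.07 for PVAT preadipocytes over PVAT progenitors (adjusted p = 0.881). Without the 3 outlying libraries, the first was 0.70 (adjusted p = 0.00547) and the second 0.49 (adjusted p = 0.0138), and both were called. The first was also called in a fit of the 2 groups alone (0.56, adjusted p = 0.0214) and when scaled by library totals (0.94, adjusted p = 0.0453). The interaction of -0.65 ± 0.43 (adjusted p = 0.324) was -0.91 without the 3 libraries (adjusted p = 0.00678). Group means of Cspg4 were highest in PVAT progenitors, at 26.0 ± 10.3 CPM, and lowest in DPP4+ progenitors, at 13.3 ± 2.78 CPM.

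Mcam (chromosome 9, 44134469 to 44142727) encodes CD146, an adhesion molecule of mural and endothelial cells. It was at 21.6, 39.7 and 27.8 CPM in PVAT preadipocytes, against 12.8, 14.8 and 14.5 CPM in PVAT progenitors. It was at 40.9, 38.1 and 44.0 CPM in ICAM1+ preadipocytes, against 11.5, 22.2 and 10.8 CPM in DPP4+ progenitors. In both depots every preadipocyte library lay above every progenitor library of the same depot, while ICAM1+ preadipocytes and PVAT preadipocytes overlapped. Mcam rose in PVAT preadipocytes by 1.08 ± 0.27 over PVAT progenitors (adjusted p = 0.0104) and in ICAM1+ preadipocytes by 1.47 ± 0.28 over DPP4+ progenitors (adjusted p = 0.00241). Without PVAT preadipocyte library 2 the PVAT value was 0.80 (adjusted p = 0.0586). Between the depots the values were -0.46 ± 0.27 between the preadipocytes (adjusted p = 0.174) and -0.08 ± 0.27 between the progenitors (adjusted p = 0.874). The interaction was -0.39 ± 0.38 (adjusted p = 0.519) and -0.72 without those 3 outlying libraries (adjusted p = 0.0288).

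Abcc9 (chromosome 6, 142587862 to 142702315) encodes SUR2, the regulatory subunit that pairs with the pore subunit Kir6.1, encoded by Kcnj8, to form the ATP-sensitive potassium channel of mural cells. Abcc9 was at 69.3, 32.4 and 20.4 CPM in PVAT preadipocytes, against 85.6, 163 and 183 CPM in PVAT progenitors. It was at 64.8, 68.1 and 76.6 CPM in ICAM1+ preadipocytes, against 178, 181 and 150 CPM in DPP4+ progenitors. All 6 progenitor libraries lay above all 6 preadipocyte libraries, and PVAT progenitor library 1 was the lowest of the progenitors. Abcc9 fell in PVAT preadipocytes by 1.82 ± 0.38 below PVAT progenitors (adjusted p = 0.00375) and in ICAM1+ preadipocytes by 1.28 ± 0.37 below DPP4+ progenitors (adjusted p = 0.03). With the pool as a block, the inguinal value was -1.27 (adjusted p = 0.0565), and scaled by library totals it was -0.91 (adjusted p = 0.0751). It also missed the threshold when any of 6 single libraries was left out. The depot comparisons were not called, with -0.78 ± 0.37 between the preadipocytes (adjusted p = 0.103) and -0.24 ± 0.37 between the progenitors (adjusted p = 0.684). Without PVAT preadipocyte library 1 the difference between the preadipocytes was -1.46 (adjusted p = 0.00197), and without all 3 outlying libraries it was -1.45 (adjusted p = 5.54e-06).

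Kcnj8 had the same direction between stages. It was at 107, 43.2 and 37.6 CPM in PVAT preadipocytes, against 148, 123 and 135 CPM in PVAT progenitors. It was at 53.2, 58.5 and 52.9 CPM in ICAM1+ preadipocytes, against 493, 459 and 524 CPM in DPP4+ progenitors. The preadipocytes were below the progenitors in every pool of both depots. Kcnj8 fell in PVAT preadipocytes by 1.11 (adjusted p = 0.0158) and in ICAM1+ preadipocytes by 3.17 (adjusted p = 2.86e-05), and the interaction was 2.06 ± 0.43 (adjusted p = 0.00832). For Abcc9 the interaction was -0.54 ± 0.52 (adjusted p = 0.505), so the genes of both subunits were lower in preadipocytes, and a difference between depots was called for Kcnj8. Without the 3 libraries that stood apart, the Abcc9 interaction was -1.52 (adjusted p = 0.000227). Kcnj8 was also lower in PVAT progenitors than in DPP4+ progenitors (log2 -1.86), where Abcc9 was not called. The genes of the related channel of pancreatic beta cells were low, Abcc8 with group means of 0.421 to 1.34 CPM and Kcnj11 with 0.0129 to 0.369 CPM.

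Vtn (chromosome 11, 78499091 to 78502324) encodes vitronectin, an adhesive glycoprotein that binds integrins and, in brain, is made by pericytes. It was at 2.06, 6.69 and 4.82 CPM in PVAT preadipocytes, against 1.44, 1.61 and 1.30 CPM in PVAT progenitors. It was at 36.7, 40.5 and 42.6 CPM in ICAM1+ preadipocytes, against 6.85, 10.1 and 7.70 CPM in DPP4+ progenitors. No group overlapped another, and it was the 1 member called in all 4 comparisons of groups. Vtn was 8.82-fold lower in PVAT preadipocytes than in ICAM1+ preadipocytes (log2 -3.14 ± 0.33, adjusted p = 2.37e-05) and 5.64-fold lower in PVAT progenitors than in DPP4+ progenitors (log2 -2.50 ± 0.35, adjusted p = 0.000215). It was higher in preadipocytes than in progenitors by 1.64 ± 0.35 in PVAT (adjusted p = 0.00439) and by 2.28 ± 0.32 in IWAT (adjusted p = 0.000285). The interaction was -0.64 ± 0.47 (adjusted p = 0.371). The stage difference therefore had the same direction in both depots, at a lower level in PVAT. The ratio of Vtn to Steap4 counts, examined after its values were seen, was 0.0190 to 0.0584 in PVAT preadipocytes and 0.00806 to 0.0111 in PVAT progenitors. It was 0.0958 to 0.103 in ICAM1+ preadipocytes and 0.311 to 0.412 in DPP4+ progenitors, so the balance of the pair separated all 4 groups.

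Ndufa4l2 (chromosome 10, 127514967 to 127517154) encodes a small mitochondrial protein related to the complex IV subunit of Ndufa4, and it is induced by hypoxia through HIF1A. It was at 19.4, 7.42 and 7.60 CPM in PVAT preadipocytes, against 13.2, 12.4 and 12.5 CPM in PVAT progenitors. It was at 8.07, 7.54 and 9.29 CPM in ICAM1+ preadipocytes, against 5.42, 3.26 and 4.42 CPM in DPP4+ progenitors. PVAT preadipocyte library 1 was the highest of all 12, and the other preadipocyte libraries of PVAT lay below all PVAT progenitors. Ndufa4l2 rose in PVAT progenitors over DPP4+ progenitors by 1.54 ± 0.35 (adjusted p = 0.00566). ICAM1+ preadipocytes were above DPP4+ progenitors in 3 of 3 pools, with 0.92 ± 0.34 (adjusted p = 0.0867). That difference was called in 5 alternatives, with adjusted p-values of 0.00552 to 0.0154, among them a fit of the 2 groups alone (0.91, adjusted p = 0.00674) and the fit without the 3 outlying libraries (0.73, adjusted p = 0.0154). PVAT preadipocytes over PVAT progenitors gave -0.15 ± 0.33 (adjusted p = 0.761), and -0.79 without PVAT preadipocyte library 1 (adjusted p = 0.0122) or without the 3 outlying libraries (adjusted p = 0.00441). PVAT preadipocytes over ICAM1+ preadipocytes gave 0.47 ± 0.33 (adjusted p = 0.263) and -0.20 without that library. The interaction was -1.07 ± 0.47 (adjusted p = 0.144) and -1.52 without the 3 outlying libraries (adjusted p = 0.000714). Exons of Shmt2 on the other strand overlap 2.92% of its exon length.

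Ndufa4, its relative in complex IV, averaged 551 ± 273 CPM in PVAT preadipocytes, 205 ± 30.7 in PVAT progenitors, 169 ± 21 in ICAM1+ preadipocytes and 136 ± 20.6 in DPP4+ progenitors. It rose in PVAT preadipocytes over both PVAT progenitors (1.42) and ICAM1+ preadipocytes (1.70). Per kilobase, Ndufa4l2 made up 8.40%, 1.60% and 1.17% of the pair in PVAT preadipocytes, against 6.65%, 6.99% and 8.32% in PVAT progenitors. It made up 5.01% to 6.74% in ICAM1+ preadipocytes and 3.36% to 4.91% in DPP4+ progenitors. Libraries 2 and 3 of the PVAT preadipocytes were thus the lowest of all 12 in this share, and library 1 was the highest.

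Higd1b (chromosome 11, 102835849 to 102838040) belongs to a family of hypoxia-inducible mitochondrial proteins and is among the most pericyte-restricted genes in mouse lung and brain. It was near the limit of detection, with 4, 13 and 25 counts in PVAT preadipocytes, against 6, 4 and 12 in PVAT progenitors. It had 37, 48 and 23 counts in ICAM1+ preadipocytes, against 11, 15 and 13 in DPP4+ progenitors. ICAM1+ preadipocytes held the most, and their lowest library was above the highest of the DPP4+ progenitors also in CPM (1.18 against 1.14). No comparison was called with edgeR on all libraries. PVAT preadipocytes over ICAM1+ preadipocytes gave -1.29 ± 0.54 (adjusted p = 0.07), PVAT progenitors over DPP4+ progenitors -1.31 ± 0.62 (adjusted p = 0.146) and ICAM1+ preadipocytes over DPP4+ progenitors 0.82 ± 0.55 (adjusted p = 0.355). Between the preadipocytes it was called with limma-voom (-1.40, adjusted p = 0.0024) and without PVAT preadipocyte library 3 (-2.12, adjusted p = 0.0138), so that result depended on the test and on 1 library.

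A list of 25 other mural genes was read in the same way. Over all genes, 17.9% were called between the inguinal groups and 32.9% between the PVAT groups. The shares were 24.9% between the progenitors and 44.9% between the preadipocytes. In number, the calls of the list between the PVAT groups and between the preadipocytes were near those shares. ICAM1+ preadipocytes were higher than DPP4+ progenitors in 13 and lower in 3, with a median log2 change of 1.17. The increases were led by the Notch target Heyl (4.15), Gucy1a1 (3.49), which encodes a subunit of the nitric oxide receptor, and the transcription factor gene Foxs1 (3.40). Kcnj8 (-3.17) led the decreases. PVAT preadipocytes were higher than PVAT progenitors in 5 and lower in 3, with a median of 0.32, led by Anpep (-3.03), which encodes the aminopeptidase CD13, Art3 (1.76), Cd248 (-1.47) and Angpt1 (1.15). PVAT progenitors were higher than DPP4+ progenitors in 10 and lower in 3, with a median of 0.35, led by the endothelin receptor gene Ednra (3.61), Heyl (3.53), Mylk4 (3.50, on 66 counts over the PVAT progenitors and 4 over the DPP4+ progenitors) and Art3 (-3.23). PVAT preadipocytes were higher than ICAM1+ preadipocytes in 1 and lower in 10, with a median of -0.56, led by Anpep (-2.37), Notch3 (-2.0), Mylk4 (1.85) and Cd248 (-1.84). Without the 3 libraries that stood apart, 20 of the 25 were called between the preadipocytes, with 10925 of all genes, and 13 between the PVAT groups, with 9894.

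In the interaction of depot and stage, 2 of the 25 were called higher and 11 lower, against 6.37% and 8.66% of all genes. Their median was -1.11. Heyl (-3.63 ± 0.71), Ednra (-3.51 ± 0.59), Kcne4 (-3.39 ± 0.71) and Aoc3 (-3.30 ± 0.46) had the largest values, next to Steap4 at -4.60. Heyl was at 220, 74.4 and 45.5 CPM in PVAT preadipocytes, against 58.4, 80.6 and 97 CPM in PVAT progenitors. It was at 119, 121 and 124 CPM in ICAM1+ preadipocytes, against 4.78, 11.2 and 4.42 CPM in DPP4+ progenitors. DPP4+ progenitors were the low group, as for Steap4, and PVAT preadipocyte library 1 stood above the rest, as for Rgs5. Notch3 was at 125, 133 and 134 CPM in ICAM1+ preadipocytes, against 13.4, 27.6 and 20 CPM in DPP4+ progenitors, while the PVAT groups both lay between 26.3 and 44.4 CPM.

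**Figure D3:**
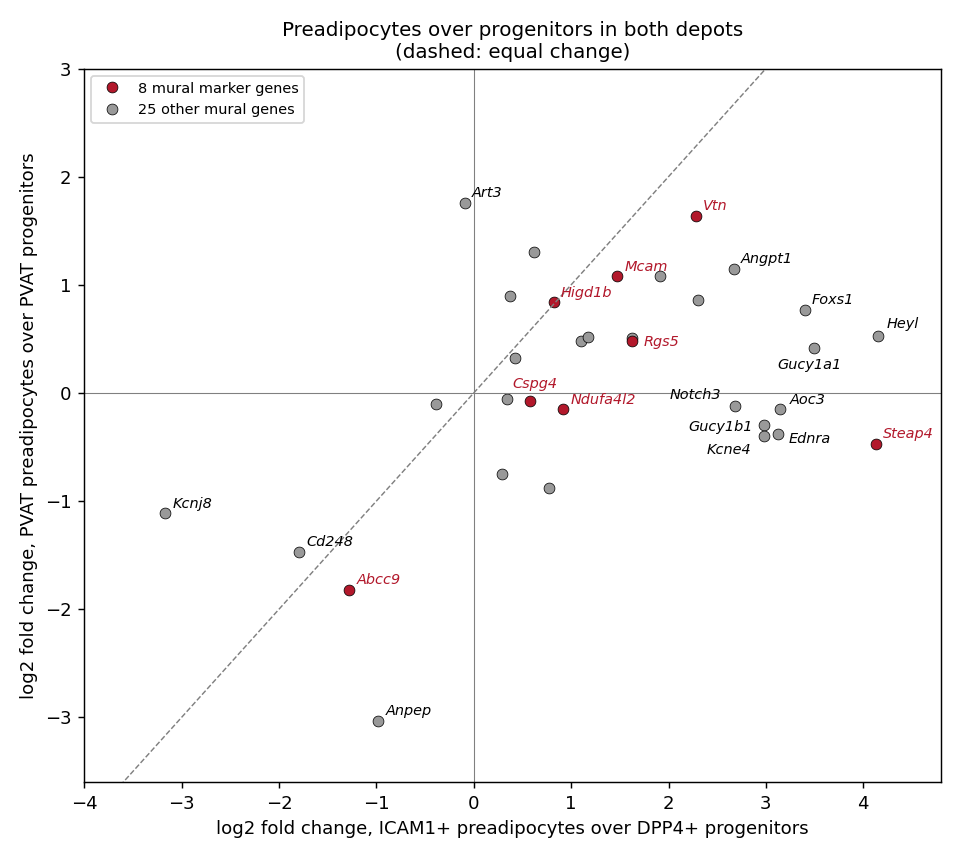
Log2 fold change of preadipocytes over progenitors in inguinal fat (x axis) and in PVAT (y axis) for the 8 marker genes (red) and the 25 other mural genes (grey), with a dashed line at equal change. Vtn and Mcam lie at the upper right, Abcc9 lies with Kcnj8 and Cd248 in the lower left, and Steap4 lies far to the right at -0.47 on the y axis with Notch3, Aoc3, Ednra and Kcne4.

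A list of 18 ligands and receptors that act between endothelium and mural cells shared Pdgfrb, Notch3, Angpt1 and Ednra with the list of other mural genes. Tek was also on the endothelial list and Pdgfra on the fibroblast list, so these counts are not separate from those of the other lists. Among the 18, ICAM1+ preadipocytes were higher than DPP4+ progenitors in 7 and lower in 4. PVAT preadipocytes were higher than PVAT progenitors in 2 and lower in 5. PVAT progenitors were higher than DPP4+ progenitors in 4 and lower in 5, and PVAT preadipocytes were higher than ICAM1+ preadipocytes in 0 and lower in 9. In the order of these 4 comparisons, 17.9%, 32.9%, 24.9% and 44.9% of all genes were called. Angpt1, the ligand by which pericytes steady the endothelium, averaged 7.73 ± 1.47 CPM in PVAT preadipocytes, 3.48 ± 0.960 in PVAT progenitors, 15.4 ± 1.13 in ICAM1+ preadipocytes and 2.41 ± 0.935 in DPP4+ progenitors, and it was called higher in preadipocytes of both depots (1.15 in PVAT, 2.67 in IWAT). Angpt1 was among the 3 genes most like Mcam over the 12 libraries. Its receptor gene Tek was lower in preadipocytes than in progenitors of both depots (-3.0 in PVAT, -3.14 in IWAT). Pdgfrb was called only between the preadipocytes, lower in PVAT preadipocytes (-1.04, adjusted p = 0.0434), and Pdgfb, which endothelium makes, was low at group means of 0.344 to 0.605 CPM.

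The genes whose log2 CPM was most like a member's, by Pearson's r over the 12 libraries and among 10387 genes, were S1pr3 (0.992), Adcyap1r1 (0.990) and Hgf (0.987) for Steap4, and Rbl2 (0.990), Akap12 (0.986) and Arhgap12 (0.982) for Abcc9. For Rgs5 they were Gucy1a1 (0.912), Itga1 (0.911) and Lmo7 (0.907), and for Vtn Pgrmc1 (0.961), Pcf11 (0.960) and Msx1 (0.958). For Mcam they included Rfx7 (0.960) and Angpt1 (0.947), and for Cspg4 Pola1 (0.931), Pik3r1 (0.904) and Zgrf1 (0.894). For Ndufa4l2 they were Hyal1 (0.957), Ccn4 (0.944) and Cst3 (0.942), and for Higd1b Fam120a (0.933), Rap2c (0.923) and Tab2 (0.911). The 12 libraries fall into 4 groups of 3, so these values mostly describe the order of the group means. S1pr3, a sphingosine 1-phosphate receptor gene, averaged 73.5 ± 12.8 CPM in PVAT preadipocytes, 96.0 ± 8.29 in PVAT progenitors, 203 ± 21.8 in ICAM1+ preadipocytes and 24.9 ± 8.37 in DPP4+ progenitors, the same order as Steap4.

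Within groups, the members fell into sets that moved apart from each other. In PVAT preadipocyte library 1, Rgs5, Abcc9 and Ndufa4l2 were above their group mean by 0.95, 0.95 and 0.90 on the log2 scale. In the same library Vtn, Cspg4, Mcam and Higd1b were below it, with -0.94, -0.54, -0.41 and -1.17. In PVAT progenitor library 1, Rgs5 (-0.68), Abcc9 (-0.68) and Cspg4 (-0.77) were low. These 2 libraries came from the same pool of mice, and Rgs5 and Abcc9 deviated in opposite directions in them. Cspg4 (-0.54 and -0.77), Mcam (-0.41 and -0.13) and Higd1b (-1.17 and -0.18) were below their group means in both. In DPP4+ progenitor library 2, Rgs5 (0.89), Mcam (0.66) and Steap4 (0.56) were high, and Abcc9 (0.10) was not. ICAM1+ preadipocytes deviated least, by at most 0.17 in all members but Higd1b.

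**Figure D4:**
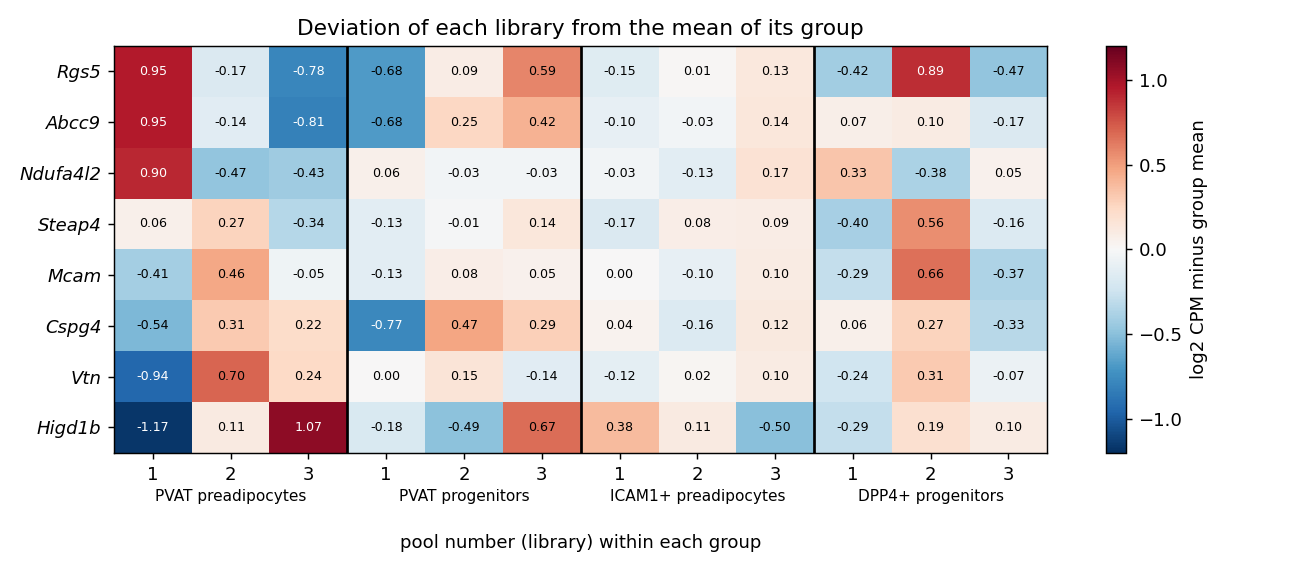
Deviation of log2 CPM from the group mean for the 8 genes (rows) in the 12 libraries (columns, grouped by cell population, pools 1 to 3), with red above and blue below the mean. Rgs5 and Abcc9 deviate together in both PVAT groups, and Vtn and Ndufa4l2 deviate in opposite directions in PVAT preadipocytes.

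Rgs5 and Abcc9 had the closest deviations among pairs with a positive value (r = 0.85 over the 12 libraries), although their levels across groups ran apart (r = -0.20). Their ratio of counts, also examined after its values were seen, was 2.04, 2.0 and 2.09 in PVAT preadipocytes, against 0.407, 0.365 and 0.461 in PVAT progenitors. It was 1.66, 1.76 and 1.70 in ICAM1+ preadipocytes, against 0.145, 0.356 and 0.167 in DPP4+ progenitors. In PVAT preadipocytes the ratio held within 2.0 to 2.09 while Rgs5 ran between 42.6 and 141 CPM and Abcc9 between 20.4 and 69.3 CPM, and the exception to a steady ratio was DPP4+ progenitor library 2. Preadipocytes of both depots had more Rgs5 than Abcc9 counts, and progenitors of both had less. Vtn and Ndufa4l2 deviated in opposite directions in every library of PVAT preadipocytes (r = -0.92 over the 12 libraries) and in the same direction in ICAM1+ preadipocyte libraries 1 and 3, and Mcam deviated with Vtn and with Steap4 (r = 0.75 each). These are descriptions over 12 libraries that share depth and pools.

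Markers of other cell types were measured in the same libraries. The summed CPM of 15 smooth muscle genes was 478 to 707 in PVAT preadipocytes, 497 to 604 in PVAT progenitors, 699 to 841 in ICAM1+ preadipocytes and 947 to 1040 in DPP4+ progenitors. Within it, Myh11 of contractile smooth muscle averaged 37.1 ± 8.32, 34.3 ± 17.8, 63.2 ± 16.7 and 42.3 ± 31.7 CPM in that order of groups, and DPP4+ progenitor library 2 held 78.8 CPM of Myh11 against 25.4 and 22.7 CPM in the others. The sum of 15 endothelial genes was 166 to 258 in PVAT preadipocytes, 350 to 489 in PVAT progenitors, 326 to 368 in ICAM1+ preadipocytes and 947 to 1160 in DPP4+ progenitors. Single genes carried the high sums of the DPP4+ progenitors, Ckb with 742 CPM and Tek with 683 CPM on average. Ckb averaged 72.2 CPM in PVAT preadipocytes, 178 in PVAT progenitors and 215 in ICAM1+ preadipocytes. Some contractile genes ran the other way, and others did not. Acta2 averaged 321 CPM in PVAT preadipocytes, 180 in PVAT progenitors, 234 in ICAM1+ preadipocytes and 58.1 in DPP4+ progenitors, and Cnn1, Actg2 and Lmod1 also had their lowest means in DPP4+ progenitors, where Rgs5, Steap4 and Cspg4 were lowest. Mylk (19.4 ± 13.6 CPM) and Des (17.9 ± 1.21 CPM), like Myh11, had means in DPP4+ progenitors above those of both PVAT groups. Smtn averaged 101 CPM there, against 72.7 CPM in PVAT preadipocytes. ICAM1+ preadipocytes were called higher than DPP4+ progenitors in Acta2 (2.01), Cnn1 (1.69) and Actg2 (1.94).

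The sum of 14 haematopoietic genes was 35.8 to 57.7 CPM in PVAT preadipocytes, 27.0 to 79.2 in PVAT progenitors, 64.9 to 75.2 in ICAM1+ preadipocytes and 60.1 to 238 in DPP4+ progenitors. That of 7 mast cell genes was 19.5 to 26.9, 11.2 to 14.9, 60.2 to 101 and 67.5 to 283 CPM in the same order, and Cpa3 and Tpsb2 were at 0 counts in PVAT progenitor library 2. That of 9 Schwann and neural genes was 28.8 to 39.0, 40.7 to 49.2, 204 to 234 and 82.1 to 169 CPM. The mesothelial sum, over 10 genes, was 38.8 to 88.8, 152 to 275, 31.2 to 46.8 and 37.6 to 41.6 CPM. The highest haematopoietic, mast cell and Schwann sums of the DPP4+ progenitors were all in library 2. Every member but Ndufa4l2 was also highest of that group there, with the largest deviations in Rgs5, Mcam and Steap4. The Schwann sum was highest in ICAM1+ preadipocytes, where Vtn and Steap4 were highest. Its within-group deviations ran with those of Steap4 (r = 0.96 over 12 libraries), the largest such value of the 8 genes over the lists. Between the levels of Steap4 and that sum, r was 0.24. The part of these cell types in the changes of the 8 genes was not tested.

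By gene, ICAM1+ preadipocytes over DPP4+ progenitors had 3 smooth muscle genes called higher and 1 lower, 1 and 1 endothelial, 0 and 0 haematopoietic, 0 and 1 mast cell, 4 and 0 Schwann and 2 and 2 mesothelial. PVAT preadipocytes over PVAT progenitors had 5 and 1, 0 and 5, 0 and 0, 3 and 1, 0 and 1, and 0 and 5 in that order of lists. PVAT progenitors over DPP4+ progenitors had 4 and 2, 1 and 5, 0 and 8, 0 and 6, 2 and 4, and 7 and 0. PVAT preadipocytes over ICAM1+ preadipocytes had 4 and 4, 1 and 5, 0 and 5, 0 and 5, 0 and 7, and 7 and 3. In the order of these 4 comparisons, 17.9%, 32.9%, 24.9% and 44.9% of all genes were called. Of 12 fibroblast and adipose progenitor genes, 11 were lower and 1 higher in PVAT preadipocytes over PVAT progenitors, and 4 were lower and 2 higher in ICAM1+ preadipocytes over DPP4+ progenitors. Between depots, 10 were lower and 1 higher in PVAT preadipocytes over ICAM1+ preadipocytes, and 6 lower and 1 higher in PVAT progenitors over DPP4+ progenitors. The summed CPM of that list was 34400 to 99900 in PVAT preadipocytes, 133000 to 213000 in PVAT progenitors, 171000 to 204000 in ICAM1+ preadipocytes and 328000 to 385000 in DPP4+ progenitors. Collagen genes carried most of this sum, with means of 206000 CPM for Col3a1, 60500 for Col1a1 and 60000 for Col1a2 in DPP4+ progenitors. Abcc9 ran with the sum, with r = 0.91 between its log2 level and the summed level over the 12 libraries, the highest of the 8 genes. For deviations within groups, r was 0.94.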

How the data were processed

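RNA was measured in 12 libraries of sorted cells, built with SMART-Seq v4 (a kit for very small RNA amounts, per the labels' protocols). The authors deposited whole-number counts per gene, not normalized. STAR 2.5.2a, DESeq2 1.26.0 and the build mm10 are named in the submitters' processing notes; no source used here gives the counting tool, annotation or strand setting. Counts were scaled by TMM and filtered with filterByExpr (minimum count 10), and all 12 libraries were fitted together with edgeR 4.0.16 (quasi-likelihood test, two-sided, Benjamini-Hochberg over all genes tested, threshold 0.05) in R 4.3.3. Alternatives used limma 3.58.1 and DESeq2 1.42.0, other scalings and filters, the pool as a block, and libraries left out. Log2 CPM used a prior count of 2. Exon lengths came from GENCODE mouse release 21.

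The 8 genes and the lists (other mural genes, ligands and receptors, relatives of the 8 genes with some channel and respiratory genes, and markers of smooth muscle, endothelial, haematopoietic, mast, Schwann, mesothelial and fibroblast cells) were chosen with earlier results of these data known. Some genes were on more than 1 list. All 8 genes are named; of the other mural genes, up to 4 called genes with the largest change per comparison; and for each of the 8 the 3 genes with the highest r, of which 1 is not reported here. Others were chosen after their values were seen. Per the labels, libraries with the same number share a pool of mice. Of 18 same-numbered pairs, 5 had deviations correlated above 0.1 (range -0.213 to 0.153). The mean r was -0.02 for same-numbered pairs and 0.01 for pairs with different numbers.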

Additional observations from a re-analysis of the deposited data

Results flagged for a closer look

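The change from progenitors to preadipocytes differed between PVAT and inguinal fat, by the interaction term of edgeR's quasi-likelihood test, in 1 of the 8 marker genes and 13 of the 25 other mural genes, against 15.0% of all genes (2834 of 18855). Values are the log2 change in PVAT minus that in inguinal fat. Steap4 had -4.60. The other genes below zero were Heyl (-3.63), Ednra (-3.51), Kcne4 (-3.39), Aoc3 (-3.30), Gucy1b1 (-3.28), Gucy1a1 (-3.07), Notch3 (-2.80), Foxs1 (-2.63), Anpep (-2.06), Angpt1 (-1.52) and Rasl12 (-1.44). Those above zero were Kcnj8 (2.06) and Art3 (1.85).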

How the results depend on the processing

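Of 827 alternative values for the 40 gene results, 737 kept their direction and side of the threshold, and 30 changed sign. Among the rest, the call was lost in 23 and gained in 37. The members called between the preadipocytes numbered 2, and 6 with limma-voom and 5 without the 3 libraries that stood apart (2 to 4 leaving out single libraries, 4 without PVAT preadipocyte library 1). The calls over all genes were 8467, and 12585 with limma-voom, 10925 without the 3 libraries and 9574 without PVAT preadipocyte library 1. Between the PVAT groups 3 became 6 without the 3 libraries, while the calls over all genes went from 6198 to 9894. Between the inguinal groups 5 became 3 when ICAM1+ preadipocyte library 1, 2 or 3 or DPP4+ progenitor library 1 or 3 was left out. The count rose to 7 in a fit of those groups alone and without the 3 libraries. It was 6 with limma-voom and 6 with library totals, where the Abcc9 call was lost (-0.91). The calls over all genes were 3384, and 5757 in the fit of those groups alone, 6052 with limma-voom and 5281 with library totals. In the interaction 1 became 4 with limma-voom, 6 without the 3 libraries, 4 without PVAT preadipocyte library 1 and 2 without PVAT progenitor library 1, while the calls over all genes went with them (2834, and 8384, 7784, 5234 and 4847 in that order). With the pool as a replicate block, the Abcc9 call between the inguinal groups was lost (-1.27) and the Higd1b interaction was -0.10; no other call of the 8 genes changed. The values that changed sign were not called among all libraries. Mcam in PVAT progenitors over DPP4+ progenitors was -0.08, and 0.34 with library totals, 0.03 with limma-voom, 0.39 without the 3 libraries and -0.25 to 0.34 leaving out single libraries. Abcc9 there was -0.24, and 0.18 with library totals, 0.07 without the 3 libraries and -0.45 to 0.02 leaving out 1. Ndufa4l2 in PVAT preadipocytes over ICAM1+ preadipocytes was 0.47, and -0.07 with limma-voom, -0.19 without the 3 libraries and -0.20 to 0.71 leaving out 1. In PVAT preadipocytes over PVAT progenitors, Rgs5 was 0.48, and -0.04 with limma-voom, -0.49 without the 3 libraries and -0.20 to 0.81 leaving out 1. Cspg4 there was -0.07, and 0.11 with library totals and -0.42 to 0.12 leaving out 1. Ndufa4l2 there was -0.15, and 0 with library totals and -0.79 to 0.08 leaving out 1. The Higd1b interaction was 0.02, and -0.17 with library totals, -0.05 with no filter, -0.11 with limma-voom and -0.78 to 0.55 leaving out 1. Of the 25 other mural genes, 11 were called between the preadipocytes, and 19 with limma-voom, while the calls over all genes went from 8467 to 12585. Between the PVAT groups 8 were called, and 15 with limma-voom and 4 in a fit of those groups alone. The calls over all genes there were 6198, and 10913 and 2825 in that order. With library totals, the called genes that were higher made up 83.7% for PVAT progenitors over DPP4+ progenitors (52.5% with TMM) and 82.7% for ICAM1+ preadipocytes over DPP4+ progenitors (52.0% with TMM). The cause of these changes was not tested.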
